A study of Mus musculus with 16 samples.

Results

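The mitochondrial respiratory chain and ATP synthase were followed in mouse liver through 75 nuclear-encoded genes. A probe was taken when the symbol of its gene belongs to one of the families Ndufa, Ndufb, Ndufc, Ndufs and Ndufv, Sdh, Uqcr, Cox4 to Cox8 or Atp5, or is Cyc1, and when its signal was detected (detection p under 0.01) on 4 or more of the 16 arrays. By symbol 90 probes of 89 genes matched, of 25697 probes on the array, and 76 probes of 75 genes passed the detection rule. The rule counted arrays over all groups and used no difference between them, but Ndufb4 passed it only through arrays of chip B. The members were chosen with earlier results of these data known.

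Total RNA of livers of female C57BL/6J mice was hybridised to single-colour Illumina bead arrays, 1 array per sample and 4 arrays per group. The groups were high-fat diet (HFD) with nicotinamide mononucleotide (NMN) given intraperitoneally for 7 days, on chip B; HFD without NMN on chip B; HFD without NMN on chip A; and regular chow on chip A. By the column names of the signal table, the HFD arrays of both chips hold the same 4 mice, so there were 12 mice in all. The sources used here state no age of the mice, no length of the diet and no vehicle for HFD mice.

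The respiratory chain passes electrons from NADH (at complex I) and from succinate (at complex II) through ubiquinone to complex III, then through cytochrome c to complex IV, where oxygen is reduced to water. Complexes I, III and IV pump protons out of the matrix, and complex V, the ATP synthase, uses their return to make ATP. Liver cells are rich in mitochondria and rely on this system for gluconeogenesis and urea synthesis and for reoxidising the NADH made in fatty acid oxidation. NMN is a precursor of NAD+, the coenzyme that carries electrons to complex I. Most subunits are encoded in the nucleus, and a few core subunits are encoded in mitochondrial DNA. No mitochondrially encoded subunit was named on these arrays.

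Each array had a mean signal of 202, on the linear scale of the deposited table, and between 9473 and 10569 detected probes. Levels below are normalised log2 signals and differences are log2 differences between groups. Levels of different probes are not compared, since each probe has its own brightness. Among hepatocyte markers 8 of 10 were tested, and their summed log2 level stood between 16.16 and 16.24 on the HFD arrays of chip A and between 16.20 and 16.27 on the chow arrays. Their single differences with HFD ran from -0.68 to 0.59, with a median of -0.16. Of the 8, 2 had an adjusted p under 0.05 in limma, both lower, against 6.89% of all genes. Summed macrophage markers (7 tested) stood between 11.42 and 12.44 in HFD on chip A and between 10.42 and 11.38 in chow. Each of the 7 was higher with HFD, by 0.23 to 1.65. Of the 7, 2 had an adjusted p under 0.05 in limma, against 6.89% of all genes. Summed neutrophil markers (9 tested) spread from 8.84 to 12.76 in HFD on chip A and from 8.38 to 10 in chow. The tops of both ranges were set largely by Lcn2, at 12.68 in HFD mouse 1 and 9.74 in chow mouse 4. S100a8 was instead highest in HFD mice 2 and 3 (10.07 and 9.86), against 7.21 and 5.95 in HFD mice 1 and 4. Each of the 9 was higher with HFD, by 0.56 to 2.68, and 0 had an adjusted p under 0.05 in limma, against 6.89% of all genes. Endothelial markers (6 tested) were higher with HFD by 0.18 to 0.78, with 2 called, and erythroid markers (3 tested) by 0.22 to 1.88, with 1 called. B cell markers (3 tested) differed by 0.45 to 0.85, T and NK cell markers (3 tested) by -0.32 to -0.26, stellate markers (5 tested) by -0.00093 to 0.45, with 0 called. With NMN against HFD no marker was called, and list medians ran from -0.90 (neutrophil) to 0.57 (B cell). The part of such shifts in cell content in the values below was not tested. In whole tissue, fewer cells of a type and less RNA per cell cannot be told apart.

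Complex I was covered by 37 detected genes of 40 matched. These were 27 accessory subunits, 5 core subunits of the peripheral arm (Ndufs3, Ndufs7, Ndufs8, Ndufv1 and Ndufv2), 4 assembly factors and 1 pseudogene by name, Ndufs5-ps. Ndufa4 was counted here by its symbol, although its protein is now assigned to complex IV. Ndufs1, the largest iron-sulfur subunit, was matched but detected on 0 arrays. Complex II was represented by 5 of 7 genes, namely the membrane anchor Sdhd and the assembly factors Sdhaf1 to Sdhaf4. Its iron-sulfur subunit Sdhb and its second anchor Sdhc were detected on 0 arrays, and no named probe matched the flavoprotein Sdha. Complex III was covered by 7 of 9 genes, including both core proteins (Uqcrc1 and Uqcrc2) and cytochrome c1 (Cyc1), while the Rieske protein Uqcrfs1 and Uqcrq were detected on 0 arrays.

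Complex IV was covered by 12 of 18 genes. All 10 common subunits and the supercomplex factor Cox7a2l were detected, and of 7 isoforms restricted to particular tissues only Cox7a1, the heart and skeletal muscle form of subunit 7a, passed. Cox7a1 was detected on 16 arrays, against 0 arrays for Cox4i2, Cox6a2, Cox6b2, Cox7b2, Cox8b and Cox8c. None of the 7 muscle marker genes named on the array passed the detection rule. Complex V was covered by 14 of 15 genes, with all 5 genes of the catalytic head, all 4 of the peripheral stalk and all 3 genes of the c ring. Of the 75 members, 72 were detected on all 16 arrays. The exceptions were Ndufb11 on 13, Cox7b on 12 and Ndufb4 on 6 arrays, the last being the weakest gene kept, and Ndufab1, on 2 arrays, was the nearest gene left out.

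Averaged over a complex, the members lay within a narrow band on every array. Relative to the chow mean, complex I averaged 0.024 ± 0.064 in HFD with NMN, 0.0086 ± 0.056 in HFD on chip B, -0.013 ± 0.065 in HFD on chip A and 0 ± 0.066 in chow (log2, SD, n = 4 each). Complex IV stood at 0.15 ± 0.065 in HFD with NMN, 0.13 ± 0.071 in HFD on chip B, 0.068 ± 0.080 in HFD on chip A and 0 ± 0.080 in chow. For complex V the values were 0.010 ± 0.059 in HFD with NMN, 0.040 ± 0.049 in HFD on chip B, -0.034 ± 0.056 in HFD on chip A and 0 ± 0.079 in chow. The complex IV means of the NMN arrays overlapped those of the HFD arrays on chip B, and those of the HFD arrays on chip A overlapped those of chow.

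**Figure D1:**
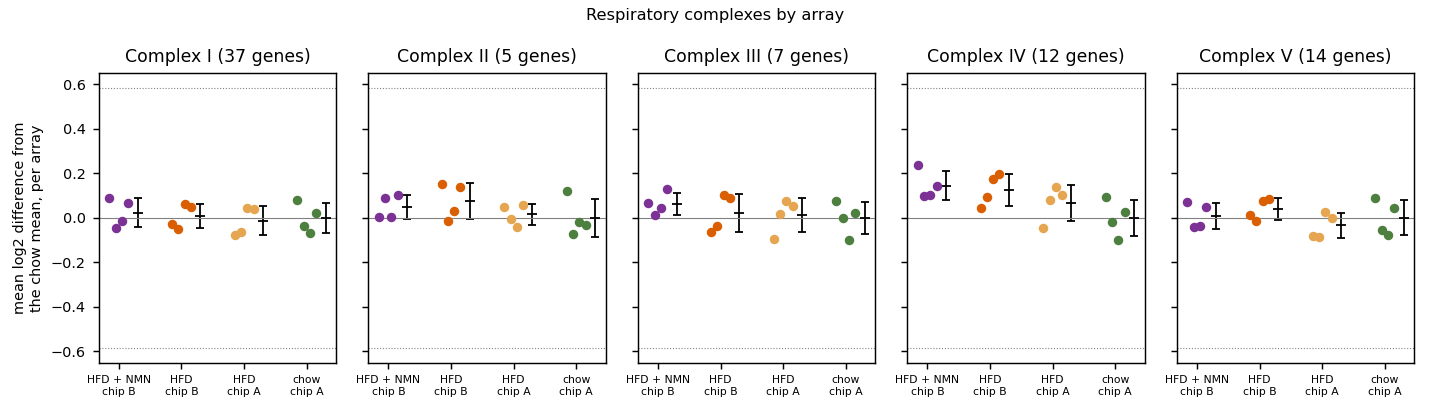
Mean log2 difference from the chow mean over the detected genes of each complex, 1 point per array, with the mean and SD of each group of 4 beside the points and dotted lines at a 1.5-fold difference. All points lie far inside the dotted lines, between -0.10 (complex IV in a chow mouse) and 0.24 (complex IV in an NMN mouse).

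With HFD, no member of the chain passed the test against chow. In limma, with Benjamini-Hochberg adjustment over all 6559 genes tested, 0 of 75 members had an adjusted p under 0.05, while 452 of all genes (6.89%) did. At an unadjusted p under 0.05 there were 4 members, against 25.3% of all genes. With the mouse as a random block the count was again 0, against 517 genes (7.88%). For all 75 members the 95% interval of the difference lay inside 1.5-fold in either direction, against 80% of all genes. The members' differences ran from -0.24 to 0.27 with a median of -0.0038, and the median of all genes was -0.011. One of the 75, Ndufb4, was undetected on all arrays of both diet groups, so no fold is given for it and its interval bounds no difference in expression. The offset of 16 added before the log2 step also narrows the differences of other weak probes. Mean linear signals were 49 for Ndufb11, 50 for Cox7b and 55 for Ndufaf3. For such members the interval bounds a change in signal and not in expression.

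The flavoprotein subunit Ndufv1, which binds NADH and starts electron transfer, had log2 levels of 11.81, 11.86, 12.01 and 12.04 in HFD livers on chip A, against 11.97, 11.82, 11.79 and 11.95 in chow livers. The groups overlapped, and the difference was 0.047 (SE 0.079, adjusted p = 0.753 in limma). The accessory subunit Ndufa8 had 9.68, 9.93, 10 and 9.95 in HFD livers, against 9.62, 9.73, 9.61 and 9.54 in chow livers. Of the HFD mice only mouse 1 lay within the chow range. This was the largest positive difference of complex I, 0.26 (SE 0.10, adjusted p = 0.114 in limma). Ndufaf7, an assembly factor of complex I, had 6.40, 6.26, 6.62 and 6.51 in HFD livers, against 6.64, 6.60, 6.80 and 6.71 in chow livers, and HFD mouse 3 overlapped the lowest chow mouse. Its difference of -0.24 (SE 0.08, adjusted p = 0.0875 in limma) was the most negative of all members. Ndufs4, an accessory subunit needed for a stable peripheral arm, was 10.47, 10.39, 10.46 and 10.42 in HFD livers and 10.30, 10.31, 10.35 and 10.39 in chow livers, with no overlap but a difference of only 0.10. Members whose HFD and chow arrays did not overlap numbered 2 (Cox7a2l and Ndufs4), against 15.3% of all genes.

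In complex II the largest difference was that of Sdhaf1, an assembly factor for the iron-sulfur subunit. It had 6.91, 6.75, 6.58 and 6.74 in HFD livers and 6.90, 6.39, 6.49 and 6.30 in chow livers, a difference of 0.22 (SE 0.12, adjusted p = 0.278 in limma). The highest chow mouse lay just below the highest HFD mouse and above the other 3. In complex III, the core protein Uqcrc1 had 9.80, 9.66, 9.95 and 9.91 in HFD livers, against 10.26, 10, 9.85 and 10.08 in chow livers. The groups overlapped by chow mouse 3, and the difference was -0.22 (SE 0.10, adjusted p = 0.185 in limma). Uqcr10, a small subunit of the same complex, differed by 0.13 (SE 0.066, adjusted p = 0.233 in limma), and Cyc1, which hands electrons to cytochrome c, by -0.054 (SE 0.13).

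In complex IV, Cox7a2l stood highest. This factor links complex III to complex IV in supercomplexes, and C57BL/6J mice are known to carry a short form of it. Its levels were 9.60, 9.49, 9.55 and 9.61 in HFD livers and 9.16, 9.38, 9.39 and 9.24 in chow livers, without overlap. The difference was 0.27 (SE 0.089), or 1.20-fold, with an interval of 0.079 to 0.46, and it missed the threshold (adjusted p = 0.0793 in limma, unadjusted p = 0.00833). The scaffold subunits Cox4i1 (0.089, SE 0.076), Cox5a (0.029, SE 0.11) and Cox5b (0.0094, SE 0.068) had intervals that included 0. Differences were positive for 10 of 12 complex IV genes under quantile normalisation, with a median of 0.086, but for 4 of 12 (median -0.0082) when arrays were scaled to one median, so no direction is given for the complex.

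In complex V, 10 of 14 differences were negative with a median of -0.031. Atp5b, the catalytic beta subunit, had 13.45, 13.75, 13.69 and 13.75 in HFD livers and 13.80, 13.73, 13.67 and 13.75 in chow livers. Apart from HFD mouse 1, which lay below the others, the values lay close together, and the difference was -0.076 (SE 0.086, adjusted p = 0.622 in limma). Some of these values are identical because quantile normalisation gives every array the same set of values. Atp5c1, the gamma subunit that turns within the head, differed by 0.059 (SE 0.077), and Atp5o, the stalk subunit that holds the head still, by -0.11 (SE 0.087, adjusted p = 0.469 in limma). The most positive difference was 0.063 (SE 0.071) for Atp5mpl, a small membrane subunit.

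**Figure D2:**
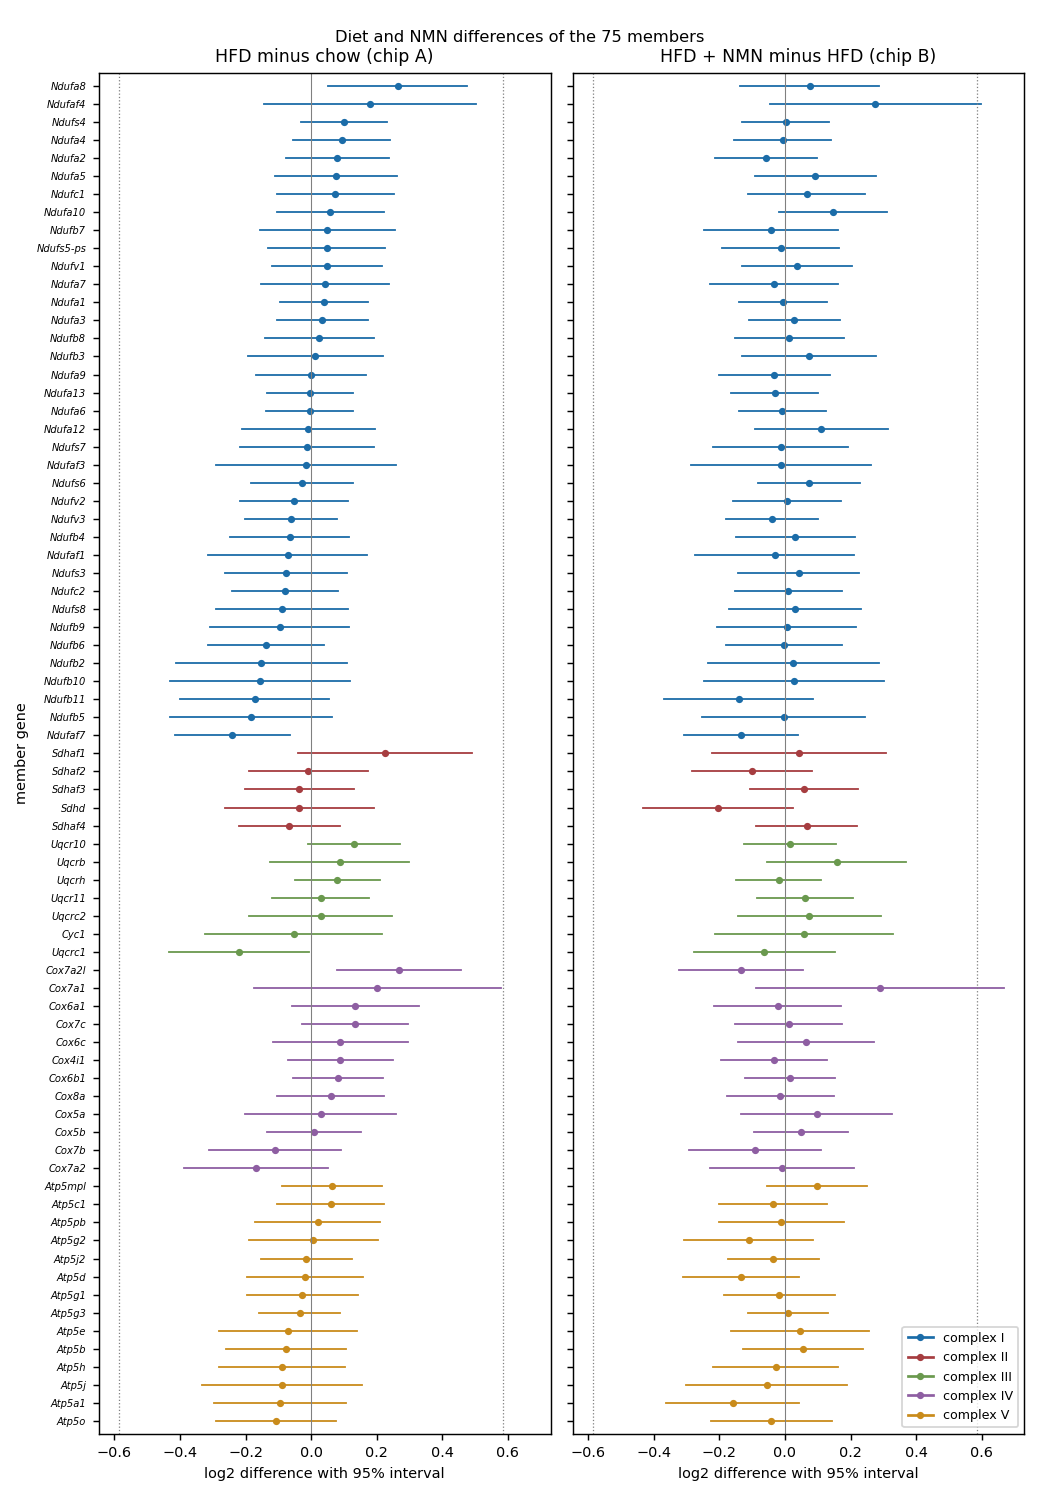
Log2 difference and 95% interval of each of the 75 genes, ordered within complexes by the diet difference, for HFD minus chow on the left and HFD with NMN minus HFD on the right. Dotted lines mark 1.5-fold; all intervals on the left and all but those of Ndufaf4 and Cox7a1 on the right lie inside them.

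NMN given to HFD mice was followed by no called difference among the members. In limma 0 of 75 members and 0 of 6559 genes (0%) had an adjusted p under 0.05, and at an unadjusted p under 0.05 there were 0 members, against 643 genes (9.8%). The NMN and HFD arrays of chip B overlapped for every member, while 4.89% of all genes had no overlap. The interval lay inside 1.5-fold for 73 members, against 86.6% of all genes. Differences ran from -0.20 to 0.29 with a median of 0.0018.

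Ndufaf4, an assembly factor of complex I, had 8.57, 8.22, 8.47 and 8.76 in HFD livers with NMN, against 8.33, 8.16, 8.13 and 8.29 in HFD livers on chip B. The values overlapped at the lowest NMN mouse, and the difference was 0.27 (SE 0.15, adjusted p = 0.593 in limma), with an interval that reached 0.597. Cox7a1 had 6.40, 6.20, 6.19 and 6.79 in HFD livers with NMN and 5.67, 6.02, 6.47 and 6.27 in HFD livers. Both groups spread widely, and the difference of 0.29 (SE 0.18) had an interval of -0.087 to 0.668. These were the 2 members whose interval reached past 1.5-fold.

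Sdhd, which anchors succinate dehydrogenase in the membrane, had 5.60, 5.60, 5.41 and 5.48 in HFD livers with NMN, against 6.00, 5.53, 5.55 and 5.82 in HFD livers on chip B. The difference of -0.20 (SE 0.11, adjusted p = 0.574 in limma) was the most negative. Without HFD mice 2 and 3 it was -0.39, with the HFD values 6.00 and 5.82 of chip B left. On chip A the same mice had 5.41 and 5.36. Sdhd varied as much between the arrays of one HFD mouse (SD 0.16) as within groups (SD 0.15). Ndufb11, an accessory subunit of the membrane arm, gave -0.14 (SE 0.11), and Atp5a1, the alpha subunit of the catalytic head, -0.16 (SE 0.095). Uqcrb, a small subunit of complex III near the ubiquinone site, gave 0.16 (SE 0.099). The entry point Ndufv1 differed by 0.036 (SE 0.079), Cox5a by 0.097 (SE 0.11), Atp5b by 0.054 (SE 0.086) and Cyc1 by 0.057 (SE 0.13), and the 95% intervals of these 4 included 0.

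HFD with NMN was set against chow by adding both differences, each taken within its chip. This uses the HFD arrays of both chips as the bridge. In limma 0 of 75 members were called, against 104 of all genes (1.59%), and 69 members had intervals inside 1.5-fold, against 64.1% of all genes. The 2 members at an unadjusted p under 0.05 were Ndufaf7, at -0.37 (SE 0.12, adjusted p = 0.107 in limma), and Ndufa8, at 0.34 (SE 0.14). For both, the difference with NMN (-0.13 for Ndufaf7 and 0.075 for Ndufa8) had the sign of the difference with the diet. Picking members by the sum of both favours equal signs, and neither difference with NMN was called. When the mouse was entered as a random block, which lets the 2 arrays of an HFD mouse count as related, Ndufaf7 (adjusted p = 0.0256 in limma) and Ndufa8 (adjusted p = 0.0494 in limma) were called, against 745 of 6559 genes. Ndufa8 was no longer called when any one mouse was left out of that fit, except HFD mouse 1 or NMN mouse 2, and its adjusted p reached 0.157 without NMN mouse 3. The Ndufaf7 call was lost without chow mouse 3 or 4 or NMN mouse 3, with adjusted p of 0.0562, 0.0629 and 0.0731 in limma.

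Ndufaf7 levels were 6.41, 6.34, 6.31 and 6.39 in HFD livers with NMN, below all 4 chow values given above, on another chip. Compared directly across the chips, HFD with NMN on chip B minus chow on chip A, Ndufaf7 was lower (-0.33, adjusted p = 0.0206 in limma) and Uqcrb higher (0.45, adjusted p = 0.0205 in limma). Uqcrb was also among the members that stood higher on chip B in the same HFD mice, by 0.21, and diet, NMN and chip cannot be told apart in the direct comparison. It called 924 of all genes, against 104 for the sum of the differences.

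The HFD livers measured on both chips show how far a member moves between the 2 arrays of a mouse. The chip and other steps that differed between these arrays cannot be told apart. Without regard to the mouse, limma called 0 of 75 members and 3 genes (0.0457%) between chip B and chip A, and 5 members had an unadjusted p under 0.05, against 2.73% of all genes. The chip B and chip A arrays did not overlap for 7 members, against 2.18% of all genes, and the interval lay inside 1.5-fold for 72 members, against 93.1%. Ndufb4, which passed the detection rule only through chip B, is among both the 5 and the 7. With the mouse as a fixed block, 1 member was called, against 10 genes (0.152%). This was Atp5a1, with 7.67, 7.61, 7.71 and 7.87 on chip B and 7.0, 7.15, 7.31 and 7.22 on chip A in HFD mice 1 to 4. It was higher on chip B in 4 of 4 mice, by 0.54 (SE 0.058, adjusted p = 0.0119 in limma), which is more than any member's difference between HFD and chow or between NMN and HFD. Its levels were 7.58, 7.56, 7.45 and 7.64 in HFD livers with NMN on chip B, against 7.25, 7.32, 7.03 and 7.47 in chow livers on chip A. The groups overlapped only by NMN mouse 3 and chow mouse 4, with the other NMN arrays above all chow arrays, while the sum of the within-chip differences was -0.25 (SE 0.13, adjusted p = 0.345 in limma), with the opposite sign.

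With the mouse as a random block, 6 members were called between the chips, all higher on chip B, against 319 of all genes (4.86%). Besides Atp5a1 these were Cox7b (0.48), Sdhd (0.36), Ndufb5 (0.25), Uqcrb (0.21) and Ndufb4, which passed the detection rule only through chip B, so that its call is no evidence of a difference. Left out in turn, the HFD mice gave between 3 and 7 members. Without mouse 1 there were 3, and Ndufb4, Ndufb5 and Uqcrb were no longer called. Ndufb5 was also lost without mouse 4 (adjusted p = 0.0721 in limma) and Uqcrb without mouse 3 or mouse 4 (adjusted p = 0.0924 and 0.0786 in limma), while Atp5a1, Cox7b and Sdhd were called without any one mouse. Cox7b, a small subunit of complex IV, was detected on 8 of 8 arrays of chip B and on 4 of 8 of chip A. Its levels were 5.26, 4.99, 5.09 and 5.16 on chip B and 4.46, 4.76, 4.76 and 4.57 on chip A, higher on chip B in each mouse. Ndufb4 was detected on 6 of 8 arrays of chip B and on 0 of 8 of chip A. In HFD mice on chip B it was detected on 3 of 4 arrays. Since it passed the rule only through chip B, neither its detection nor its level is read as a difference between the chips. Of all members 25 had the same sign in 4 of 4 mice, 15 higher and 10 lower on chip B, or 33.3%, against 23.4% of all genes. Ndufb4 is among the 15.

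**Figure D3:**
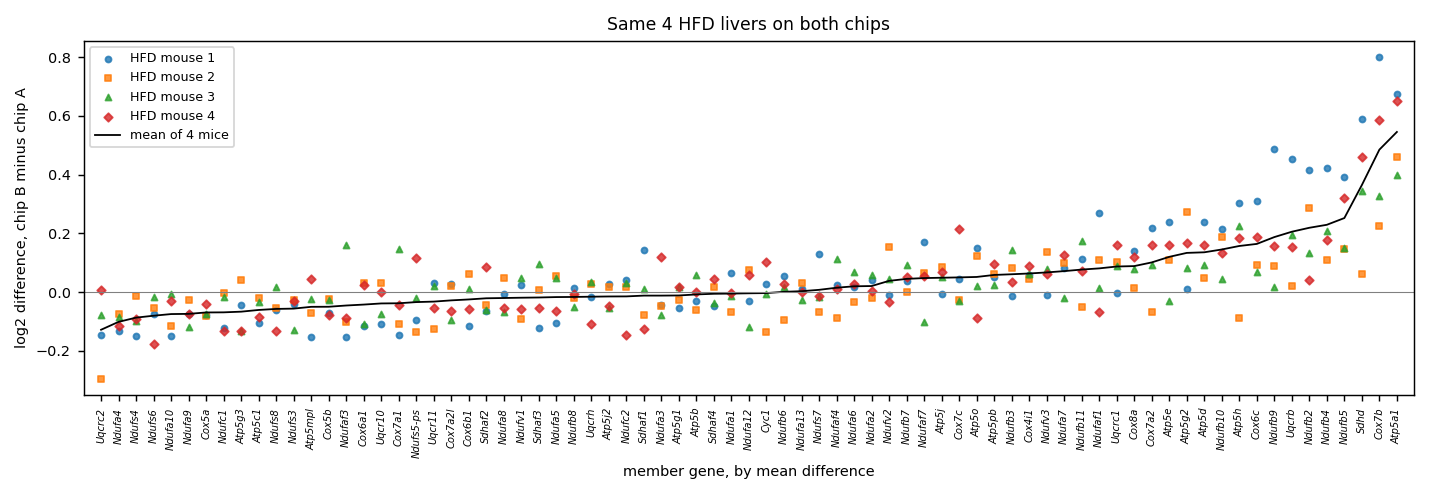
Log2 difference between the arrays of the same HFD mouse, chip B minus chip A, for each of the 75 genes in order of the mean over the 4 mice (line), 1 symbol per mouse. Most genes lie near 0, and Atp5a1, Cox7b and Sdhd at the right end are higher on chip B in all 4 mice.

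The members varied less between mice than most genes. The median SD within groups was 0.11 for the members and 0.15 for all genes tested, and between the arrays of one HFD mouse it was 0.053 and 0.068. Cox7a1 (0.27), Ndufaf4 (0.23) and Ndufb10 (0.19) were the most variable members, and Atp5g3, a c-ring gene, the least (0.049). For Atp5g3, a bright probe, some arrays hold identical values, since quantile normalisation gives every array the same set of values. For Ndufaf4 chow mouse 1 stood apart at 8.57, against 7.97, 7.85 and 7.75 in the other chow mice. A mouse's deviations from its group mean recurred on the second array. For HFD mice 1 to 4 they correlated between the chips with r of 0.71, 0.553, 0.654 and 0.628 over the 75 members, which share the RNA sample. Over all genes tested r was higher in each mouse, at 0.889, 0.892, 0.765 and 0.870.

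Between mice, members tended to deviate in the same direction. After subtraction of the group means, the median Pearson r of a pair of members over the 12 mice was 0.279, and 78.8% of the 2775 pairs were positive, against a median of 0.0018 and 50.2% positive for pairs of all genes. By complex the median r was 0.302 within complex I, 0.184 within II, 0.254 within III, 0.278 within IV and 0.321 within V. These are descriptions over 12 mice, and all genes of a mouse share its arrays and their normalisation. Averaged over all 75 members, the arrays stood at 0.10, -0.0078, 0.0072 and 0.083 relative to the chow mean in HFD livers with NMN, and at -0.00013, -0.017, 0.085 and 0.089 in HFD livers on chip B. On chip A they stood at -0.065, -0.033, 0.054 and 0.045 in HFD livers, and at 0.087, -0.035, -0.074 and 0.022 in chow livers. Each group held mice above and below its own mean, and the ranges of all 4 groups overlapped.

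**Figure D4:**
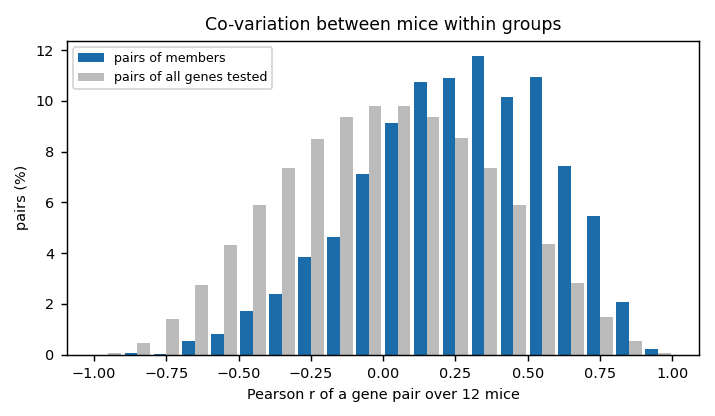
Distribution of Pearson r over 12 mice, after subtraction of group means, for the 2775 pairs of members (blue) and for pairs of all genes tested (grey), in percent of pairs. The member pairs are shifted to positive values, with a median of 0.279 against 0.0018.

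The promoters of the members were read for binding motifs of factors known to act on respiratory genes. Whether the motifs bear on the co-variation above was not tested. NRF1 and the ETS factor GABP (NRF2) are regulators of nuclear respiratory genes, and YY1 is a further one that acts with the coactivator PGC-1alpha. RefSeq windows on GRCm38.p6, from 250 bases before to 50 bases after a gene's start, were given for 65 of the 75 members and for 5395 of the genes tested. Motifs were searched as exact letters on both strands. The consensus NRF1 motif occurred in windows of 16 members (24.6%), against 12.1% of the tested genes and 5.19% of all genes with a window. The ETS motif CCGGAAG occurred in 17 members (26.2%), against 20.7% of tested genes, and the YY1 motif AAGATGGC in 10 members (15.4%), against 5.69% of tested genes. The TATA motif TATAAA occurred in 7.69% of members, against 9.73% of tested genes and 15.7% of all genes. A match is a description of letters and no evidence of binding.

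By complex, the NRF1 motif was found for 3 of 5 genes of complex II, 5 of 12 of complex V, 1 of 4 of complex III, 6 of 34 of complex I and 1 of 10 of complex IV. The windows of Ndufa8 and Uqcrc1, 2 of the 4 members at an unadjusted p under 0.05 with HFD, held it, and those of the other 2, Cox7a2l and Ndufaf7, did not. No window of a member held the direct repeat bound by PPAR factors, which occurred in 0.0371% of tested genes. At least 1 NRF1 or ETS motif was present in 29 of 65 members (44.6%), against 29.8% of tested genes.

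**Figure D5:**
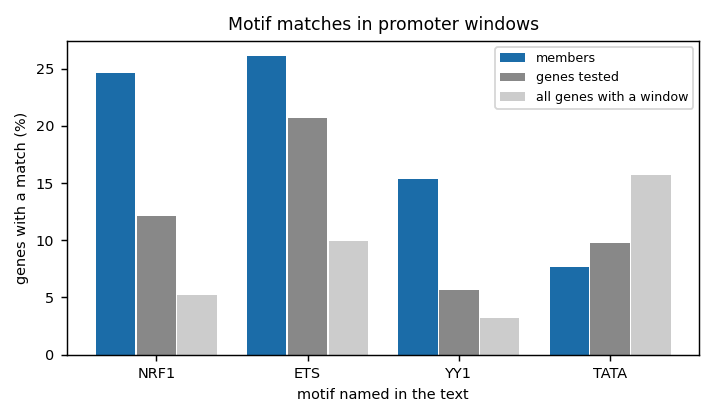
Share of promoter windows with at least 1 exact match, on either strand, to the NRF1, ETS, YY1 and TATA motifs, for the 65 members with a window, 5395 genes tested and all 27025 genes with a window. The members' bars are the highest for NRF1 (24.6%), ETS (26.2%) and YY1 (15.4%) and the lowest for TATA (7.69%).

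The 250 bases before the start are shown for 3 members with NRF1 matches and for Cox7a2l, the member with the smallest p with HFD, which has none. All run 5′ to 3′ on the minus strand of GRCm38.p6, toward the gene, and capitals mark the NRF1 and ETS matches. Ndufb4 (chr16:37654369-37654618) has 3 NRF1 matches, the nearest beginning 22 bases before the start. Cox6a1 (chr5:115348959-115349208) has 2 NRF1 matches and 1 ETS match. Atp5g2 (chr15:102671048-102671297), a c-ring gene, has 1 NRF1 match, and the window of Cox7a2l is chr17:83514334-83514583.
Ndufb4: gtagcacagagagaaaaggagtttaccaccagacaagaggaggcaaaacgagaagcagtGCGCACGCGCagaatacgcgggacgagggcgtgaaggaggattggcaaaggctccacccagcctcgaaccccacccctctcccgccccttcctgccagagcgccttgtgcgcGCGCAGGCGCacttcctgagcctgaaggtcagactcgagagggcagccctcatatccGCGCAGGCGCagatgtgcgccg
Cox6a1: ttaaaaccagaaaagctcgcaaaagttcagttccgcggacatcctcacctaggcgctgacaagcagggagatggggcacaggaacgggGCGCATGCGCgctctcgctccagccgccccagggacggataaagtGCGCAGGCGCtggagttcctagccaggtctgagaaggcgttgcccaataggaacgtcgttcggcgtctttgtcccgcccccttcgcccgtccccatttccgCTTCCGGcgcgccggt
Atp5g2: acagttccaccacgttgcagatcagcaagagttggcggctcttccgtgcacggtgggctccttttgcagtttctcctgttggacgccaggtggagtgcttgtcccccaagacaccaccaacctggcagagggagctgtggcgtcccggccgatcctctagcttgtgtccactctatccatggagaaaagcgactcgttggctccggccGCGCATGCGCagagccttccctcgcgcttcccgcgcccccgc
Cox7a2l: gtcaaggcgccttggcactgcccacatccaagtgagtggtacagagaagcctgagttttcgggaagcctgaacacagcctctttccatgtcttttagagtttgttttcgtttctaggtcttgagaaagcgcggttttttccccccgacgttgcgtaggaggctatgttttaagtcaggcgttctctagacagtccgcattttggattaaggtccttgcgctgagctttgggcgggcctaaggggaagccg

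The genes around the chain were read from lists for its assembly, fuelling and control. With HFD, Suclg1 was the only called gene of 15 tested in the tricarboxylic acid cycle. It encodes the alpha subunit of succinyl-CoA ligase, which makes the succinate used by complex II. Its levels were 10.66, 10.33, 10.67 and 10.82 in HFD livers on chip A and 10.23, 10.01, 10.14 and 10.26 in chow livers, without overlap, and it rose by 0.46 (SE 0.11, adjusted p = 0.0201 in limma). The call was lost without chow mouse 2 (adjusted p = 0.0586), HFD mouse 1 (0.0534) or HFD mouse 3 (0.0743). With NMN, Suclg1 stood at 10.42, 10.23, 10.25 and 10.25, against 10.62, 10.31, 10.51 and 10.73 in HFD livers on chip B, a difference of -0.26 (SE 0.11) that was not called (adjusted p = 0.44 in limma).

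Of 9 tested regulators of respiratory genes 1 was called with HFD. Ppargc1a, which encodes the coactivator PGC-1alpha of mitochondrial biogenesis, had 5.29, 5.03, 5.12 and 5.38 in HFD livers on chip A, against 5.75, 5.80, 5.37 and 6.11 in chow livers. Only the highest HFD mouse overlapped the lowest chow mouse, and Ppargc1a fell by 0.55 (SE 0.15, adjusted p = 0.0339 in limma). That call was present without chow mouse 3 or HFD mouse 4 and lost without any other mouse, with an adjusted p of up to 0.11 without chow mouse 4 and of 0.276 without HFD mice 2 and 3. In HFD livers with NMN it had 5.15, 5.23, 4.81 and 5.17, against 5.02, 4.82, 4.98 and 5.31 in HFD livers on chip B, a difference of 0.057 (SE 0.15). Ppargc1b, the paralogue in the same list, had 5.84, 5.37, 5.69 and 6.13 in HFD livers on chip A, against 5.92, 6.13, 6.18 and 6.90 in chow livers. Only HFD mouse 4 lay within the chow range, and Ppargc1b was not called. The regulators Nrf1 (0.069, SE 0.073) and Esrra (0.11, SE 0.090) were not called with HFD either.

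In the other lists 0 genes were called with HFD, so that 2 of the 101 genes of the 7 lists were called, against 6.89% of all genes. This held for 25 assembly factors outside the families above, where Tmem186 (0.26, adjusted p = 0.062 in limma) and Cox19 (0.29) came closest, and for 16 electron carriers and entry enzymes, where Sqor, which feeds electrons from sulfide to ubiquinone, stood at -0.43 (adjusted p = 0.0929 in limma). It also held for 7 carriers of adenine nucleotides, phosphate and protons, 11 genes of mitochondrial transcription and DNA maintenance and 18 of protein import. Cytochrome c (Cycs) differed by -0.10 (SE 0.075) and Tfam, which packs mitochondrial DNA and takes part in its transcription, by -0.0058 (SE 0.088). With NMN against HFD, none of the 101 genes of these 7 lists was called in limma, as none of all 6559 was, and 11 of the 101 had an unadjusted p under 0.05, against 9.8% of all genes. List medians with NMN lay between -0.068 and 0.079.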

How the data were processed

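The deposited signal table holds, for 16 arrays, an intensity per probe on a linear scale, which the authors scaled to one mean per array, as the values show, and a detection p-value, per the file headers. The other table the authors deposited holds a z score per array, used as an alternative. No source used here names the scanner software. Intensities were background-corrected and quantile normalised with neqc (offset 16) of limma 3.58.1 in R 4.3.3 and put on a log2 scale. Gene symbols came from the platform annotation, which named 16850 of 25697 probes. Of 10550 detected probes (p under 0.01 on at least 4 arrays), the brightest per gene gave 6559 genes. One limma fit with 4 groups gave every difference, with Benjamini-Hochberg adjustment over 6559 genes at 0.05. Its SE and 95% intervals are moderated, with n = 4 per group.

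HFD arrays of the 2 chips share animal numbers, and the deviations of the same mouse correlated at 0.765 to 0.892 over all genes. They were therefore taken as arrays of the same mice. Other groups share only numbers. The main limma fit had no term for the mouse and treated these HFD arrays as independent. They were paired only in the differences per mouse and in the fits with a block for mouse or replicate. The number of arrays limits the precision. The z score entries, 18118 per array, covered all 75 members. Motif windows came from RefSeq. The fits were tested on simulated data. Members, gene lists and tests were chosen with earlier results of these data known. Named were members that passed, the largest differences per complex and catalytic subunits. Suclg1 and Ppargc1a were the called genes of the lists, and other genes were named after their values were seen. Alternatives were the background correction, scaling, z scores, detection filter, probe choice, arrays fitted, blocks for mouse or replicate, array weights and leaving out mice.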

Additional observations from a re-analysis of the deposited data

Results flagged for a closer look

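In 8 of 140 groups of 4 arrays examined (5.71%, where chance gives about 5%), 1 array lay far from the other 3 by Dixon's ratio. Sdhaf4 stood at 9.0975 in NMN mouse 4, against 8.83 to 8.85 in the other NMN mice, and at 8.9959 in chow mouse 3, against 8.87 to 8.89. Sdhaf2 was 6.3556 in NMN mouse 1, against 6.64 to 6.67, and Sdhaf1 was 6.7227 in NMN mouse 4, against 6.79 to 6.80. All 3 encode assembly factors of complex II. Ndufa4 was 12.2927 in NMN mouse 2, against 12.50 to 12.51 in the others, and Ndufv1 was 11.8642 in NMN mouse 4, against 11.96 to 11.98. Cox7b was 5.0004 in NMN mouse 2, against 5.04 in the other 3. Cox5a was 11.0287 in HFD mouse 1 on chip B, against 11.37 to 11.41 in the other HFD mice, and 11.11 in the same mouse on chip A, the lowest there too. Of the 8 values, 6 belonged to the NMN group, and 3 of these were of NMN mouse 4.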

How the results depend on the processing

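The count of members called was 0 for HFD against chow, for NMN against HFD, for NMN against chow and for chip B against chip A, and leaving out any one mouse gave between 0 and 0 in each. It moved as follows. For chip B against chip A, 1 member was called with the z scores, with each probe on its own and with the replicate block (Atp5a1 each time), and 6 with the animal as a random block. For NMN against chow, 2 were called with only these groups fitted and 2 with the animal block. For HFD against chow, array weights gave 1, Ndufa8 (0.31, adjusted p = 0.0419 in limma). Chosen after seeing the data, the animal block with a mouse left out gave 0 to 3 members for NMN against chow and 3, 7, 7 and 5 between the chips (without HFD mouse 1, 2, 3 or 4), and without HFD mice 2 and 3 it gave 2 and 9. The replicate block changed no other count of members.

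Leaving out a mouse gave medians of -0.018 to 0.026 for HFD, -0.015 to 0.020 for NMN against HFD, -0.019 to 0.026 for NMN against chow and -0.0016 to 0.0094 between chips. Scaled to one median, the members' median between chips was -0.10, against -0.0039 under quantile normalisation, and that of all genes was -0.058. Genes called with HFD numbered 259 without a detection filter, 780 with array weights and 99 without HFD mice 2 and 3, against 452. Genes called for NMN against chow numbered 58 when scaled, 61 with z scores, 13 without a filter, 326 with the replicate block, 197 with array weights and 1 without HFD mice 2 and 3. Weak signal limits Ndufb4, Cox7b, Ndufb11 and Ndufaf3.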
